A study of Homo sapiens with 8 samples.

Results

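The 52 genes described here were chosen by symbol for their link to the interferon response: interferon receptor chains, the kinases JAK1 and JAK2, STAT and IRF transcription factors, SOCS inhibitors, effector genes and TRIM genes. They are not all the interferon genes on the array, and not all of them are known to be interferon-induced. A gene was taken when its symbol started with IFI, IFIT, IFNAR, IFNGR, ISG, OAS, GBP, IRF, STAT, JAK, SOCS or TRIM, or was MX1, MX2, BST2 or ADAR, with IRF4 left out, and when at least 4 of the 8 arrays had a value. Of 54 such genes 52 had enough values, out of 4333 named genes in the series with values on 4 or more arrays. At the edge of that minimum, OAS3, TRIM22, TRIM29 and TRIM37 had 4 values each, TRIM56 had 3 (-1.38, -0.11 and -0.22) and IFI44 had 1 (-0.35). The genes came from 149 array features.

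L363 is an established human plasma cell line, labelled as multiple myeloma. The cells were given MLN120B, a small-molecule inhibitor of IKKβ, at 12.5 µM and 37 °C for 8 h (2 samples), 12 h (3 samples) or 24 h (3 samples), and were set against L363 cells given its solvent DMSO alone. Each 2-colour array carried treated RNA in Cy5 and DMSO RNA in Cy3. A log2 ratio is therefore likely MLN120B over DMSO, but the deposited values do not state that direction or the base of the log. With base 2, which is assumed for all arrays, a ratio of 1 is a 2-fold difference, and a positive value means higher with MLN120B. The dyes were never swapped, and a bias of a feature towards one dye cannot be told apart from the treatment. L363 is 1 line, and the labels do not say that the samples were separate cultures, so that p-values reflect the spread among samples that may be technical repeats.

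IKKβ marks the inhibitors of NF-κB for destruction, which frees NF-κB to enter the nucleus. Interferons act through a different route: receptor chains on the cell surface activate JAK kinases, these phosphorylate STAT factors, and STATs alone or joined with IRF9 bind interferon-response sequences in front of effector genes. SOCS proteins switch the kinases off again. The routes meet at several points, because NF-κB helps to induce interferon β and binds the promoter of IRF1. In plasma cells and myeloma, STAT3 is best known as the mediator of interleukin-6, a growth and survival factor.

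The arrays fall into 3 runs by the numbering of the database identifiers in the labels. Both arrays of sample 3 form run 1. The 8 h array of sample 2 and the later arrays of sample 1 form run 2, and the other 3 arrays form run 3. Run 2 was much wider: the SD over all features was 1.42, 1.31 and 1.00 on its arrays, against 0.21 to 0.58 on those of runs 1 and 3. Between 6344 and 13007 features had a value on an array. As a check of the treatment, NFKBIA, the NF-κB inhibitor whose own gene NF-κB drives, lay below 0 on 8 of 8 arrays (mean over the 3 times -0.93 ± 0.14, SE). TNFAIP3, another NF-κB target, was also below 0 on 8 of 8 (-0.84 ± 0.18). Neither passed the adjusted test (limma adjusted p = 0.459 and 0.869). The 10 plasma cell markers had values on all 8 arrays with a median mean of 0.17, but 7 T cell markers (-0.18), 5 of 6 myeloid markers (0.073) and 4 of 6 stromal markers (0.070) also gave ratios. Ratios hold no level, so the cell type could not be checked with them.

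The genes lay on both sides of 0 with MLN120B, and none passed the test described below. Their means over the arrays ran from -0.89 for STAT5B to 0.31 for SOCS5, with a median of -0.039, and 29 lay below 0 and 23 above it. The median over all rows with 4 or more values was -0.007. Of 368 values of these genes 189 were below 0 and 179 above. In sample order, the median of the genes on an array was -0.034 and -0.19 at 8 h, 0.20, -0.033 and -0.034 at 12 h, and -0.27, 0.024 and 0.003 at 24 h. The 3 medians farthest from 0 were those of the run 2 arrays, and they lay on both sides of 0.

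**Figure D1:**
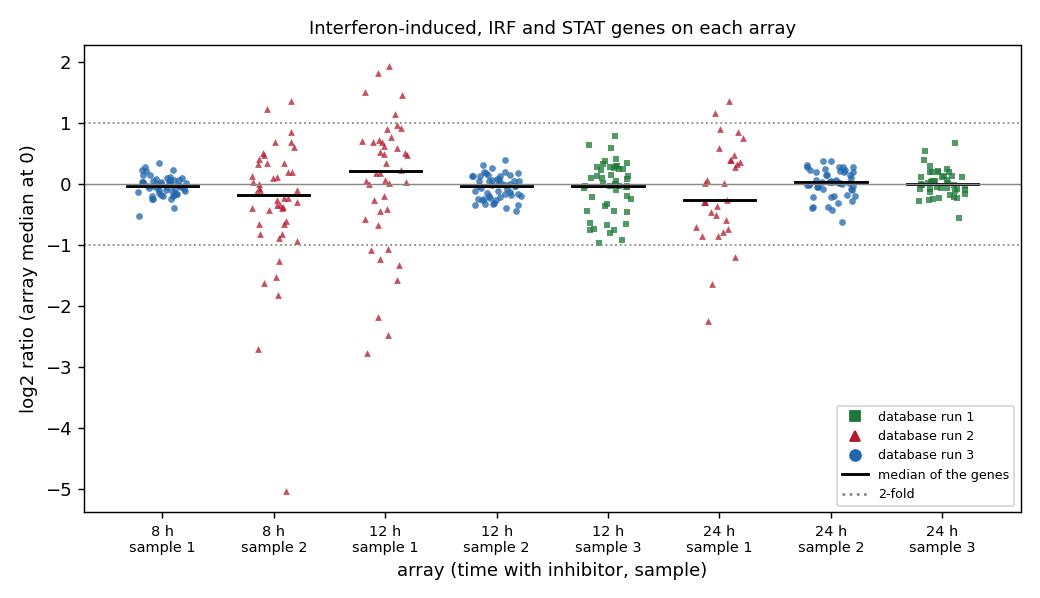
Each point is the log2 ratio of 1 of the 52 genes on an array, with arrays on the horizontal axis in order of time and the 3 database runs by colour and shape; bars are medians and dotted lines mark a 2-fold difference. Points beyond the dotted lines occur on the 3 arrays of run 2 alone, and the medians lie between -0.27 and 0.20.

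Of the 52 genes 39 had at least 2 values at each time and entered the test. None of the 39 was called by limma for the mean over the 3 times, for any single time or for any difference between times, and neither was any other row (0% of 5411 rows called in each of the 7 comparisons). At an unadjusted p under 0.05, 1 of the 39 stood out for the mean (GBP2), against 3.4% of all rows, 1 at 8 h (STAT5B; 2.4% of rows), 0 at 12 h (3.07%) and 0 at 24 h (2.01%). These shares are near those of all rows. The smallest adjusted p of a member for the mean was 0.869. The tested genes had a median of -0.073 for the mean, with 25 below 0 and 14 above, against a median of -0.008 over all rows. On the values as deposited, where the median of all rows was -0.12, 33 lay below 0 and 6 above, and the 8 genes that turned to below 0 were ADAR, IFNGR2, ISG20, MX1, MX2, OAS1, STAT4 and TRIM4. Under quantile or scale normalization IFNAR2 and IRF2 turned to above 0 and IFNGR2 to below 0, with 24 genes below 0 and 15 above. In the text below each fitted mean is over the 3 times, with its standard error, and per-array values are listed in the order of sample 1, 2 and, at 12 h and 24 h, 3.

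Promoters of 5 genes are printed because their ratios are described gene by gene below and their sequences show the elements through which interferon and NF-κB act. The windows are 300 bases around the start of the gene, from RefSeq on GRCh38.p14: ISG20 at chr15:88638766-88639065 on the plus strand, ISG15 at chr1:1013247-1013546 on the plus strand, BST2 at chr19:17405581-17405880 on the minus strand, IRF1 at chr5:132490724-132491023 on the minus strand and SOCS1 at chr16:11256155-11256454 on the minus strand. Capitals mark matches, on either strand and merged where they overlap, to the ISRE core (GAAANNGAAA, the element bound by STAT and IRF complexes), the GAS core (TTCNNNGAA, bound by STAT dimers) or the κB consensus.
ISG20: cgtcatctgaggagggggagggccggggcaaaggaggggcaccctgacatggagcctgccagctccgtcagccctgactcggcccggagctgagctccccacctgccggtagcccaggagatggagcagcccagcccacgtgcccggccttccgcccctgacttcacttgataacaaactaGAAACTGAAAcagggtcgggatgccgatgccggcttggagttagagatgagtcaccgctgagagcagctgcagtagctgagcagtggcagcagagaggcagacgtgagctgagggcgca
ISG15: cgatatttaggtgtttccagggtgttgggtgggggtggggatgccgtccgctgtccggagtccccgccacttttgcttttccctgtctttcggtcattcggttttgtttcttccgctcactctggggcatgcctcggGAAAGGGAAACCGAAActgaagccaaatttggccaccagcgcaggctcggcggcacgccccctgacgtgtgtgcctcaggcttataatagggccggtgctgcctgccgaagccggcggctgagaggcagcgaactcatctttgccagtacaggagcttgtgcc
BST2: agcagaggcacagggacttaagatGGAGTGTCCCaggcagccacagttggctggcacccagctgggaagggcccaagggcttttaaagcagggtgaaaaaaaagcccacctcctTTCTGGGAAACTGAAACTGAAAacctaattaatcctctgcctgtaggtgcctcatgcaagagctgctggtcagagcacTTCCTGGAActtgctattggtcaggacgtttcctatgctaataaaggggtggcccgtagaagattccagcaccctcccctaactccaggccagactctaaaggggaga
IRF1: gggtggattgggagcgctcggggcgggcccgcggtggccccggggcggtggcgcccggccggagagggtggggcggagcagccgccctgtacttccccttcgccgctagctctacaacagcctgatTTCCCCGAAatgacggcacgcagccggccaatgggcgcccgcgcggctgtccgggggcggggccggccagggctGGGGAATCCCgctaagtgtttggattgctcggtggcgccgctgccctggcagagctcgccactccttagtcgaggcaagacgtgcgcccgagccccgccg
SOCS1: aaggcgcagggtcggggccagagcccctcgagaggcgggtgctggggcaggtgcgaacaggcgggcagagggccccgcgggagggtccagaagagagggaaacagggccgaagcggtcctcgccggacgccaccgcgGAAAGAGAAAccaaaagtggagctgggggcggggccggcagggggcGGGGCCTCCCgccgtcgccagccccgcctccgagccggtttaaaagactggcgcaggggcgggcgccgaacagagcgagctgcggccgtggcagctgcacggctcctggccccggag
ISG20 held 1 ISRE core and ISG15 held 2 that overlap. BST2 held 2 ISRE cores, 2 GAS cores and 1 κB match. IRF1 held 1 GAS core and 1 κB match, and SOCS1 held 1 ISRE core and 1 κB match. Of the 52 genes 39 had a listed window. An ISRE core occurred in 17 of them (43.6%), against 4.38% of 27305 genes, a GAS core in 7 (17.9%, against 9.38%) and a κB match in 10 (25.6%, against 13.3%). The genes with an ISRE core had a median mean ratio of 0.001, and those without had -0.068. Genes with a κB match had a median of -0.018, against -0.073 without. A match describes letters in a window and shows no binding.

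The 4 receptor chains had means on both sides of 0. IFNAR1 and IFNAR2 form the receptor of interferons α and β. IFNAR2 had log2 ratios of 0.14 and -1.62 at 8 h, -2.78, 0.39 and 0.30 at 12 h, and 1.17, 0.38 and 0.54 at 24 h, which placed it above 0 on 6 of 8 arrays and far below 0 on 2 arrays of run 2. Its fitted mean was -0.25 ± 0.36. Over the 5 arrays of runs 1 and 3 its mean was 0.35, and without run 2 the fit gave 0.32 ± 0.10 (limma adjusted p = 0.971). IFNAR1 lay between -0.30 and 0.22, with a fitted mean of -0.087 ± 0.12. The interferon γ receptor chains IFNGR1 (0.13 ± 0.13) and IFNGR2 (0.034 ± 0.14) had means above 0 by about a standard error or less.

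Both kinases had means below 0. JAK1, which serves all interferon receptors, had log2 ratios of 0.015 and -0.27 at 8 h, -1.32, -0.16 and 0.049 at 12 h, and -0.37, 0.057 and -0.27 at 24 h. Sample 1 at 12 h was by far the lowest, and 3 arrays were above 0, so that the fitted mean of -0.27 ± 0.17 compares with -0.063 over runs 1 and 3. JAK2, the partner of JAK1 at the interferon γ receptor, was above 0 on 3 of 6 arrays, all of run 3, with a fitted mean of -0.23 ± 0.22.

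Of 5 STAT genes 4 had means below 0. STAT3, the transcription factor downstream of interleukin-6, had log2 ratios of -0.002 and -1.27 at 8 h, -0.45, -0.032 and -0.10 at 12 h, and -0.59, -0.28 and 0.21 at 24 h, below 0 on 7 of 8 arrays. Its fitted mean was -0.35 ± 0.17, and the 3 lowest values were those of run 2. Over runs 1 and 3 its mean was -0.040. STAT5B, one of the STAT5 pair that carries signals from many cytokines, had log2 ratios of 0.15 and -5.04 at 8 h, -1.08, 0.32 and -0.67 at 12 h, and 0.28 (sample 2) and -0.18 (sample 3) at 24 h. The value of -5.04 on sample 2 at 8 h set its fitted mean of -0.96 ± 0.54 and its 8 h value of -2.44 ± 0.98. That value averaged features at -8.76 and -1.31 on the same array. Without sample 2 at 8 h the fitted mean was -0.094, and without sample 1 at 8 h it was -1.82 ± 0.23 and passed the test (limma adjusted p = 0.020). In that setting 50 of 5411 rows passed. STAT5A, the other of the pair, had a mean of -0.032 ± 0.23 with values from -0.92 to 0.90. STAT4 (0.022 ± 0.17) ranged from -0.74 to 0.71. STAT6, which mediates interleukin-4, had -0.23 ± 0.21 and lay between -0.086 and 0.025 on all 5 arrays of runs 1 and 3.

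The SOCS genes, which encode inhibitors that cytokines induce against their own receptors, had means of both signs. SOCS1, the inhibitor of JAK kinases best known from interferon γ, had log2 ratios of -0.20 and -0.35 at 8 h, -1.22, -0.34 and 0.28 at 12 h, and -0.27, -0.38 and -0.088 at 24 h. It lay below 0 on 7 of 8 arrays, with a fitted mean of -0.32 ± 0.17, and sample 3 at 12 h was the exception. SOCS2, a brake on growth hormone signalling, was below 0 on all 5 arrays of runs 1 and 3, the sole gene of 42 with values on them to be so, while 7.1% of all rows with these values were. On run 2 it was above 0 on 2 of 3 arrays, and its fitted mean was -0.073 ± 0.18. SOCS3, the feedback inhibitor of the interleukin-6 receptor, had 0.28 ± 0.52 (SD, n = 7) over the arrays. SOCS5 had the highest fitted mean of the 39 tested genes (0.30 ± 0.16), with log2 ratios of 0.066 and 0.41 at 8 h, 0.17, 0.20 and 0.78 at 12 h, and 0.91, -0.039 and -0.026 at 24 h. On sample 1 at 24 h the SOCS5 features disagreed, with 4.27 on one and -1.58 on another. SOCS6 (-0.17 ± 0.26) spanned -2.18 to 1.36, both ends on run 2.

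The IRF factors switch interferon and interferon-response genes on or off, and 4 of 5 had means below 0. IRF1, an activator that both interferon γ and NF-κB are known to induce, had log2 ratios of -0.25 and -2.70 at 8 h, -0.20 (sample 2) at 12 h, and 0.24 (sample 2) and 0.12 (sample 3) at 24 h. It was below 0 at 8 h and 12 h and above 0 on both 24 h arrays with a value, but 3 arrays had none, so it was not in the test. On run 3 alone, which has a value at each time, it stood at -0.25 at 8 h, -0.20 at 12 h and 0.24 at 24 h. Both 8 h values of IRF1 came from a single feature, which on run 3 had -0.25, -0.17 and 0.18 at the 3 times. The value of sample 3 at 24 h came from another feature, which had none at 8 h. IRF9, the DNA-binding partner of the STATs after interferon α, had log2 ratios of -0.14 and -0.94 at 8 h, -1.07, -0.11 and -0.049 at 12 h, and -0.29, 0.22 and 0.029 at 24 h. Its fitted mean was -0.32 ± 0.17, against -0.010 over runs 1 and 3. IRF2, a repressor at many of the sites that IRF1 activates, was above 0 on all 5 arrays of runs 1 and 3 (0.050 to 0.23) and below 0 on all 3 of run 2, with a fitted mean of -0.12 ± 0.15. A feature of IRF2 was below 0 on the run 3 arrays (-0.069, -0.17 and -0.27), and another had no value on run 2. IRF3, the factor that induces interferon β after virus sensing, had a mean of -0.061 ± 0.13. IRF8, a factor of B and myeloid cells, averaged 0.036 ± 0.82 (SD, n = 6). Its highest value, 1.50 on sample 1 at 12 h, came from a single feature, and its mean over runs 1 and 3 was -0.098.

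The 23 genes grouped by symbol as effectors are mostly interferon-induced, and 14 had means above 0 and 9 below, with a median mean of 0.025. GBP2, a guanylate-binding protein of defence against microbes inside cells, was above 0 on every array, at 0.10 and 0.34 at 8 h, 0.48, 0.17 and 0.63 at 12 h, and 0.33, 0.019 and 0.25 at 24 h. It was the sole gene of the 52 to lie above 0 on all its arrays, while 2.37% of all rows did so, and none lay below 0 on all its arrays (3.56% of all rows). The sign on sample 1 at 24 h depends on the centring: GBP2 had 0.33 there, and the deposited median of that array was -0.475. Of the 2 features of GBP2, 1 had values on 8 arrays and the other on 3. The fitted mean of GBP2 was 0.28 ± 0.12 (limma adjusted p = 0.869), and the gene averaged 0.44, 0.38 and 0.098 in runs 1, 2 and 3. GBP1, of the same family, averaged 0.073 ± 0.53 (SD, n = 6).

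ISG20, an RNA exonuclease with antiviral activity, had log2 ratios of -0.18 and -0.82 at 8 h, 0.77, 0.001 and 0.38 at 12 h, and 0.59, 0.15 and 0.67 at 24 h. Both 8 h arrays were below 0 and all 6 later arrays were above it, but sample 2 at 12 h only by 0.001. The 4 features of ISG20 on that array ran from -0.26 to 0.24. The fitted mean of the gene was 0.12 ± 0.15. ISG15, a ubiquitin-like protein attached to other proteins, had log2 ratios of -0.24 and -0.66 at 8 h, 0.18, -0.23 and -0.36 at 12 h, and 0.016, -0.013 and 0.20 at 24 h. Its 8 h values were likewise negative, its 24 h values lay near 0, and its fitted mean was -0.17 ± 0.13. ISG20L2, a nucleolar exonuclease named for its likeness to ISG20, averaged -0.24 ± 0.70 (SD, n = 6).

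BST2 (tetherin), which holds budding viruses at the cell surface, had log2 ratios of -0.034 and -0.23 at 8 h, -2.48, -0.072 and -0.25 at 12 h, and -0.70, 0.015 and 0.29 at 24 h. The lowest was on sample 1 at 12 h, where its 2 features had -4.10 and -0.86. The fitted mean was -0.40 ± 0.27, without that array it was -0.14, and over runs 1 and 3 the mean was -0.010. ADAR, which edits adenosine in double-stranded RNA, had a fitted mean of 0.021 ± 0.16. MX1 (0.11 ± 0.12) and MX2 (0.026 ± 0.14), dynamin-like GTPases that block viruses, stayed between -0.40 and 0.69 on every array.

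The IFIT proteins bind viral RNA and limit its translation. IFIT1 had a fitted mean of 0.17 ± 0.16, IFIT2 of -0.014 ± 0.15 and IFIT3 of 0.24 ± 0.15, and IFIT5 averaged 0.21 ± 0.79 (SD, n = 6). IFIT3 had log2 ratios of 0.11 and 0.69 at 8 h, 0.26 (sample 2) and 0.41 (sample 3) at 12 h, and -0.012 (sample 2) and -0.004 (sample 3) at 24 h, so that the 24 h values lay near 0 and the earlier ones above it. The membrane proteins IFITM1 and IFITM3 block virus entry. IFITM1 had a fitted mean of -0.072 ± 0.12, and IFITM3 averaged 0.30 ± 0.82 (SD, n = 6). IFITM3 has a near-identical copy, IFITM2, and how far its features can tell the copies apart is uncertain. The OAS enzymes, which activate an RNA-degrading pathway on sensing double-stranded RNA, showed 0.043 ± 0.18 for OAS1 in the fit. Over the arrays OAS2 averaged -0.11 ± 0.78 (SD, n = 5) and OAS3 0.001 ± 0.20 (SD, n = 4).

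Of the remaining effectors, the DNA sensor IFI16 had 0.22 ± 0.22 in the fit, with a mean of -0.061 over runs 1 and 3. IFI30, a lysosomal thiol reductase of antigen processing, had -0.13 ± 0.21 and IFI35 -0.060 ± 0.19. IFI6, a small membrane protein linked to cell survival, had -0.19 ± 0.24 with -2.25 on sample 1 at 24 h and -0.15 as its next lowest value. IFI44L averaged 0.025 ± 0.53 (SD, n = 5).

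TRIM proteins are mostly ubiquitin ligases, and only part of the family is known to be interferon-induced. Of 8 measured genes 3 had means above 0 and 5 below. TRIM22, an interferon-induced antiviral factor, averaged 0.13 ± 0.18 (SD, n = 4), and TRIM37 0.072 ± 0.17 (SD, n = 4). TRIM4 had a fitted mean of 0.051 ± 0.14. TRIM14, an adaptor of antiviral signalling, was lowest, with log2 ratios of -0.077 and -0.82 at 8 h, -0.58, 0.051 and 0.13 at 12 h, and -0.86, -0.10 and -0.064 at 24 h. Its fitted mean was -0.31 ± 0.16. Its 3 lowest values were those of run 2. The fitted means of TRIM26 (-0.20 ± 0.16), TRIM13 (-0.16 ± 0.24) and TRIM34 (-0.15 ± 0.17) lay between, and TRIM29 averaged -0.15 ± 0.45 (SD, n = 4).

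**Figure D2:**
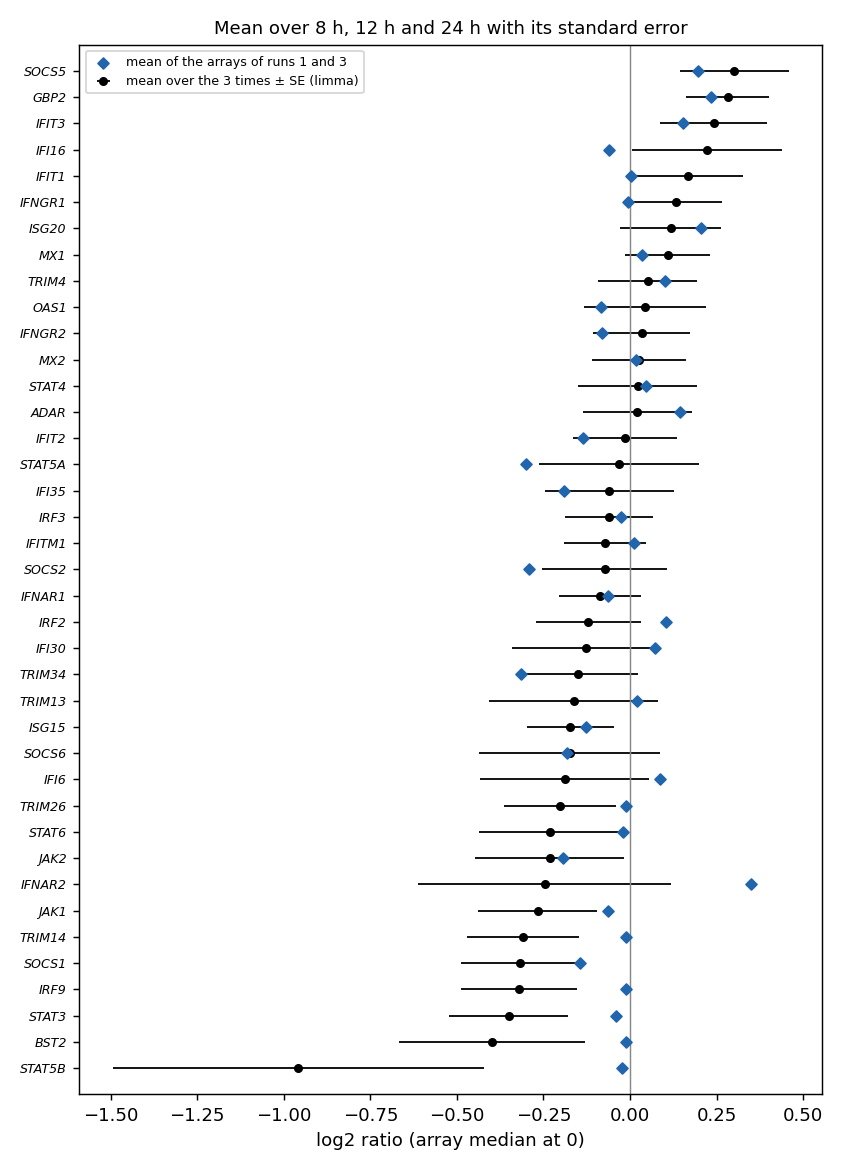
Black points are fitted means of the log2 ratio over 8 h, 12 h and 24 h for the 39 tested genes, with bars of 1 standard error; blue diamonds are means over the 5 arrays of runs 1 and 3. The diamonds of 17 of the 39 genes lie outside their bars, among them IFNAR2 (0.35), STAT5B (-0.022), STAT3 (-0.040), BST2 and IRF9 (both -0.010).

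**Figure D3:**
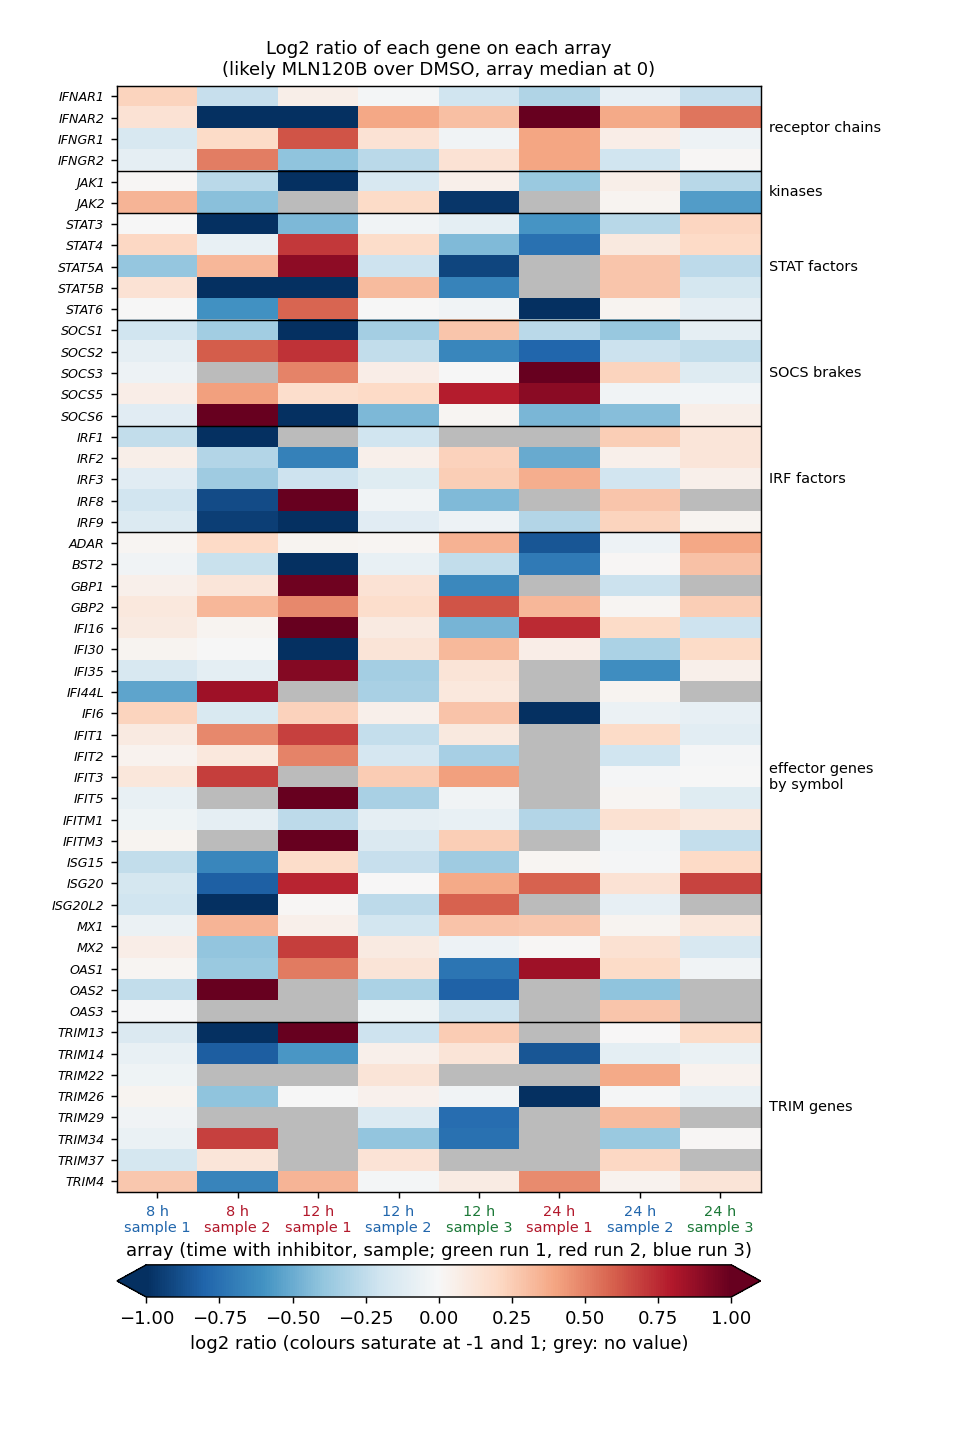
Colours show the log2 ratio of each of the 52 genes (rows, grouped by role) on each array (columns, by time and sample, with the run as label colour); grey marks no value and colours saturate at -1 and 1. With array medians at 0, GBP2 is above 0 throughout, and the 26 values past the ends of the scale are all on run 2 arrays.

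No difference between times passed the adjusted test for any of these genes. For 24 h against 8 h the median over the 39 genes was -0.001, against -0.042 over all rows. For 24 h against 12 h it was 0.022, against -0.014, and for 12 h against 8 h 0.082, against -0.004. ISG20 had the smallest p of the genes both for 24 h against 8 h (0.97 ± 0.37; limma adjusted p = 0.987) and for 12 h against 8 h (0.88 ± 0.37; adjusted p = 0.992). Without sample 2 at 8 h these ISG20 differences were 0.65 and 0.56, and without run 2 they were 0.59 and 0.37. At an unadjusted p under 0.05 it was 1 of 39 genes for the first difference (0.813% of all rows) and 1 of 2, with TRIM13, for the second (1.18% of rows). No gene reached it for 24 h against 12 h (0.684% of rows).

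Next to ISG20, the smallest p-values for 24 h against 8 h belonged to STAT5B (2.49 ± 1.39) and TRIM13 (1.08 ± 0.63), an endoplasmic reticulum ubiquitin ligase. Both had their lowest value on sample 2 at 8 h, and without that array these differences were -0.099 for STAT5B and 0.24 for TRIM13. TRIM13 had log2 ratios of -0.14 and -1.82 at 8 h, 1.15, -0.21 and 0.25 at 12 h, and 0.006 (sample 2) and 0.19 (sample 3) at 24 h, with a difference of 1.38 ± 0.58 for 12 h against 8 h over all arrays and 0.54 without sample 2 at 8 h. SOCS6 was the next gene for 12 h against 8 h (-1.49 ± 0.67). Its highest value (1.36, 8 h) and its lowest (-2.18, 12 h) both came from run 2. The value of 1.36 averaged features at 3.075 and -0.356. Runs 1 and 3 gave SOCS6 log2 ratios of -0.12 at 8 h, and -0.45 and 0.023 at 12 h. For 24 h against 12 h the smallest p-values were those of IFI6 (-0.98 ± 0.55), IFNAR2 (1.39 ± 0.83) and STAT6 (-0.75 ± 0.47), and each holds an extreme value on run 2.

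By sign alone, IRF1, ISG20 and TRIM13 lay below 0 on both 8 h arrays and above 0 on all their 24 h arrays, as did 2.31% of all rows. IFIT2 and IFIT3 showed the opposite, as did 2.2% of all rows. These are 3 and 2 of 52 genes. For IFIT2 the pattern holds for the average of its 2 features and for neither of them alone. At 8 h they had -0.15 and 0.22 on sample 1, and 1.35 and -1.15 on sample 2.

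**Figure D4:**
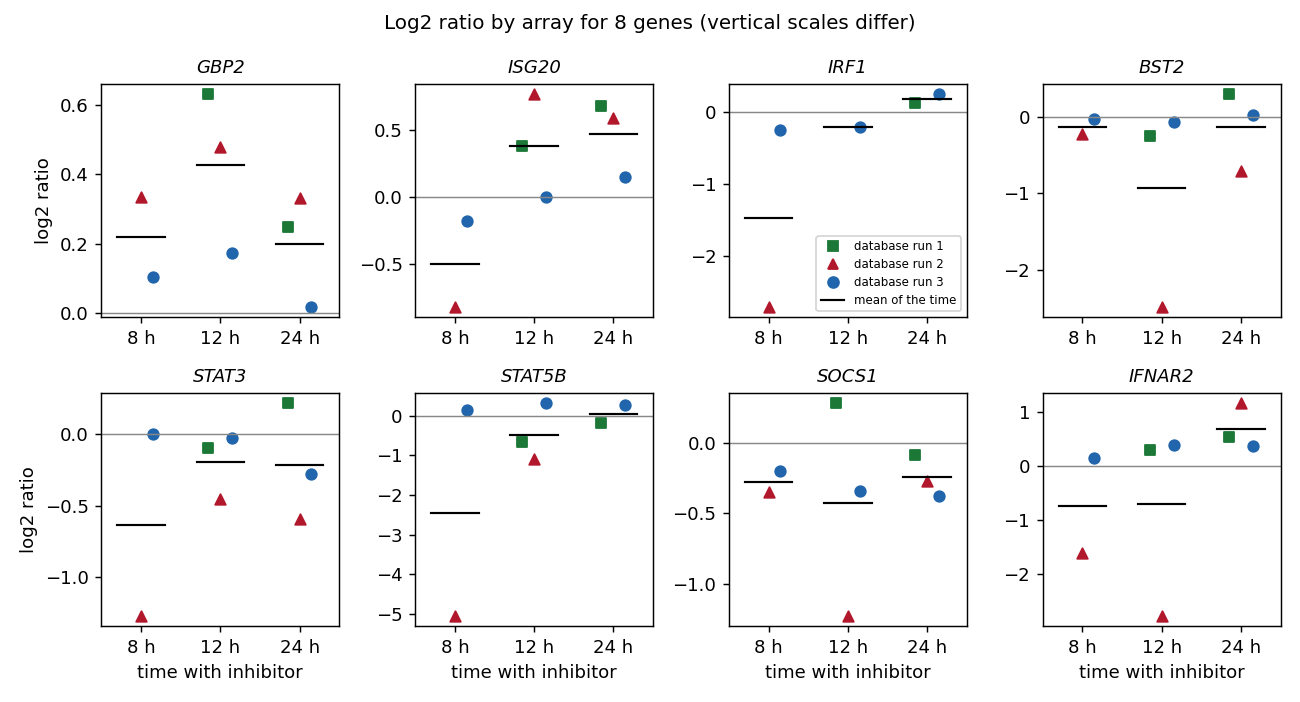
Log2 ratios by time with the inhibitor for 8 genes, 1 point per array, coloured and shaped by database run, with the mean of each time as a bar; vertical scales differ between panels. With array medians at 0, GBP2 lies above 0 at each time. ISG20 is below 0 at 8 h alone, with sample 2 at 12 h at 0.001. The lowest points of IRF1, BST2, STAT3, STAT5B, SOCS1 and IFNAR2 are run 2 arrays.

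The larger ratios of these genes belonged to run 2. Of 368 values 26, in 21 genes, were past 2-fold in either direction. All 26 were among the 119 values of run 2, and none was among the 249 of runs 1 and 3. These counts rest on the assumed base: the largest sizes over all features on the run 3 arrays, 3.05, 2.08 and 1.93, do not settle it. The 8 h array of run 2 had 8 such values of 46 (19.8% of all rows were past 2-fold there), its 12 h array 13 of 42 (29.8%) and its 24 h array 5 of 31 (23.4%). Run 1 had 0 of 49 at 12 h (5.23% of rows) and 0 of 44 at 24 h (1.06%). Run 3 had 0 of 52 on each array, against 0.116%, 0.114% and 0.101% of rows at 8 h, 12 h and 24 h. In 14 of 52 genes 1 array lay far from the others (24.2% of all rows), and in all 14 it was an array of run 2 (89.4% of such rows). The part of the run in the ratios of single genes was not tested beyond these values and the blocked fits.

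For 49 genes with values on both sides, the mean over run 2 and that over runs 1 and 3 had the same sign in 25 and opposite signs in 24. The run 2 means spanned -3.06 to 1.93 and those of runs 1 and 3 spanned -0.44 to 0.35. Across these 49 genes, which share their arrays, Pearson's r was -0.24, given as a description. A pattern chosen after the values were seen, all 5 arrays of runs 1 and 3 on one side of 0, held above 0 for GBP2, IFNAR2 and IRF2, 3 of 42 genes (9.05% of 5645 rows).

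Features of a gene did not always agree. Of 35 genes with at least 2 features that had 4 or more values, 20 had feature means of both signs. For IFNAR1 the feature means ran from -0.71 to 0.28 over 6 features, and for ADAR they were -0.24 and 0.53.

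Of 70 other genes of interferon induction, signalling and response, 50 were annotated on the array and 49 had values on 4 or more arrays. Their median mean was -0.075, with 35 below 0 (71.4%) and 14 above, while 51.2% of all rows with 4 or more values lay below 0, with a median of -0.007. Over runs 1 and 3 the median of the list was -0.044, with 32 below 0 and 17 above, against -0.007 over all rows, with 4238 of 8180 below 0. Of 40 tested genes 0 rose and 0 fell by the adjusted test (0% of all rows). At an unadjusted p under 0.05 there was 1 of 40, against 3.4% of all rows: PIAS3, an inhibitor of STAT3 (-0.38 ± 0.16; limma adjusted p = 0.869). Its mean over runs 1 and 3 was -0.079. Ligands and sensors (9 measured of 16) had a median mean of -0.091, with 8 of 9 below 0. Signalling genes and their brakes (12 of 16) had -0.049, with 7 of 12 below 0. Effectors (28 of 38) had -0.078, with 20 of 28 below 0. Over runs 1 and 3 the medians of these lists were -0.055, -0.015 and -0.041, with 6 of 9, 6 of 12 and 20 of 28 below 0. Of the 60 single values of ligands and sensors 29 were below 0 and 31 above. The highest fitted means were those of PARP9 (0.36 ± 0.22), a partner of the ubiquitin ligase DTX3L, PTPN1 (0.27 ± 0.25), a phosphatase of JAK kinases, and UBA7 (0.25 ± 0.23), the enzyme that activates ISG15. Over runs 1 and 3 all of these were below 0, at -0.087, -0.057 and -0.038, against run 2 means of 1.06, 0.98 and 0.85. The lowest were those of PSMB9 (-0.50 ± 0.24), a subunit of the immunoproteasome, PIAS3, and, nearly level, the interleukin-6 receptor chain IL6ST (-0.32 ± 0.18) and the chemokine CXCL9 (-0.32 ± 0.19). Over runs 1 and 3 their means were -0.16 for PSMB9, -0.033 for IL6ST and -0.22 for CXCL9.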

How the data were processed

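The values are the log2 ratios the authors deposited, 1 column per array, for 15246 features (14771 with a value); how they corrected background, filtered spots or normalized is not given in the sources used here. Base 2 is assumed: the largest size, 12.4, exceeds the 11.1 that natural log ratios of 16-bit scans allow, but only sample 2 at 8 h goes past that, so for the other arrays the base is carried over. Without intensities, signal over background cannot be given, and precision is limited by the number of arrays. By the platform annotation, 10169 features have 1 gene, 4 have several and 5073 have none listed. RefSeq symbols replaced older ones through Entrez identifiers (10128) or accessions (17), and 24 symbols were kept. Each array was centred on its median and features of a gene were averaged. Rows with at least 2 values at each time (5411, of which 3311 named) were fitted with a mean per time in limma 3.58.1 (R 4.3.3; lmFit and eBayes, up to 5 residual degrees of freedom). Ratios were tested against 0, which leaves out the spread of the DMSO control. Tests were 2-sided with Benjamini-Hochberg adjustment over all rows and a threshold of 0.05. The fit was tested on simulated data in which a row had an equal spread on all arrays. That test could not show how the wider spread of run 2 affects the fit. Python 3.11.15, pandas 2.3.3 and matplotlib 3.10.9 prepared tables and plots.

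The genes and lists were chosen with earlier results of these data known. Named with values were all receptor, JAK, STAT, SOCS, IRF and effector genes, and the 3 highest and 3 lowest TRIM means. The other TRIM genes are added. Named too were the 3 smallest p for each difference between times, and the 3 highest and 3 lowest fitted means of the tested pathway genes. LGALS3BP and PTPN11, with the highest and lowest means over the arrays in the pathway list (0.74 and -0.67), were not tested. NFKBIA and TNFAIP3 were added as a check of the treatment. Sample numbers recur across times. Deviations of same-numbered 12 h and 24 h arrays correlated at 0.20, 0.26 and 0.29, and those pairs also share a run. Correlations of 8 h arrays with their number at 12 h and 24 h were -0.21, -0.15, -0.32 and -0.19. They cannot decide the pairing, because the deviations of the 2 arrays at 8 h mirror each other (-1) and none of those pairs shares a run. The labels do not say that equal numbers pair the samples, and they were not taken to do so. No 2 arrays correlated above 0.61. Alternatives were the values as deposited, other normalizations and filters, features on their own, sample number and run as blocks, array weights, robust variances and leaving out arrays or run 2.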

Additional observations from a re-analysis of the deposited data

Results flagged for a closer look

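In 14 of 52 genes a single array stood far from the others, by the gap to its nearest neighbour over the whole range; chance marks about 1 in 20 groups in this way where all arrays spread alike, which they do not here. The same held for 24.2% of all rows. All 14 values fell on the arrays of run 2, whose spread over all features was the widest, as did 89.4% of such values over all rows. On sample 2 at 8 h they were STAT5B at -5.04 (the other arrays -1.08 to 0.32), IRF1 at -2.70 (-0.25 to 0.24), TRIM4 at -0.66 (-0.02 to 0.47) and OAS2 at 1.23 (-0.81 to -0.24).

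On sample 1 at 12 h they were BST2 at -2.48 (the other arrays -0.71 to 0.29), IFI30 at -1.58 (-0.31 to 0.32), JAK1 at -1.32 (-0.37 to 0.06), SOCS1 at -1.22 (-0.38 to 0.28), IFIT5 at 1.81 (-0.32 to 0.02) and IFITM3 at 1.93 (-0.24 to 0.25). On sample 1 at 24 h they were IFI6 at -2.25 (-0.15 to 0.29), TRIM26 at -1.19 (-0.40 to 0.04), ADAR at -0.86 (-0.05 to 0.38) and SOCS3 at 1.36 (-0.13 to 0.50). STAT5B, IRF1, BST2 and IFI6 lay below 0 there, and IFIT5, IFITM3 and SOCS3 above.

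IRF1 lay on opposite sides of 0 at 24 h (mean 0.18, 2 arrays) and at 8 h (mean -1.47, 2 arrays), a difference of 1.66 on the log2 scale. This difference was not tested, since IRF1 has a value on 1 array alone at 12 h, and the value of -2.70 is one of its 2 values at 8 h. It also compares unlike features in part. Both 8 h values came from a single feature, and that of sample 3 at 24 h came from another, which had no value at 8 h.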

How the results depend on the processing

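None of the 39 tested genes passed the test in any of the 7 comparisons under the alternatives other than leaving out arrays. With each array left out in turn, 0 to 1 passed for the mean over the 3 times, for 8 h, for 24 h against 8 h and for 12 h against 8 h. The 1 was STAT5B without sample 1 at 8 h (mean -1.82, 8 h -5.04, 24 h against 8 h 5.08, 12 h against 8 h 4.56; adjusted p of 0.020, 0.005, 0.015 and 0.018), a setting that leaves 1 array at 8 h, assumed to vary like the others, and in which 50, 125, 70 and 71 rows passed. The 8 h median of the genes ran from -0.23 to 0.015 with each array left out, and the 12 h median was -0.21 on the values as deposited, which keep the array medians that centring removes. Signs of single fitted means were less stable: 10 of 39 turned without run 2, 8 on the values as deposited, 6 with array weights and 2 to 7 with an array left out. Over all rows, where 0 passed in the reported fit, quantile normalization gave 3 calls for the mean and 2 at 24 h, run as a fixed block gave 3 for the mean, and admitting rows with 1 array at each time gave 2 for the mean, 10 at 8 h, 3 for 24 h against 8 h and 5 for 12 h against 8 h. Leaving out sample 3 at 12 h gave 1 and sample 2 at 24 h gave 2 in some comparisons. None of these was one of the 52 genes. Whether NFKBIA, TNFAIP3 or a gene of the pathway list was among them was not looked up. With the sample number as a block (replicate block) the median for the mean was -0.059, 0 genes passed in each comparison and 3 of 39 signs turned; the numbers are not known to pair the samples. Without run 2, too, limma called 0 rows in each comparison, with 16 to 264 rows at an unadjusted p under 0.05. Signal over background is unknown here.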
